A study of Mus musculus with 4 samples.

Results

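The 1489 regions described here, 2.66% of the 55907 regions with a peak in all 4 libraries, are accessible sites that were called in every library but stood lower in the ranking of peaks in both libraries with an siRNA against Chst7 than in both with a control siRNA. They were chosen by their values. Peaks of the 4 libraries on chromosomes 1 to 19 and X overlapping by 1 bp or more were joined, which gave 90202 regions, and 55907 of them held a peak in all 4 libraries. In each library the highest −log10 q of a region, the strength the authors' peak caller gave its summit, was turned into a percentile rank from 0 to 100 over all peaks of that library. A region became a member when its lower siControl percentile exceeded its higher siChst7 percentile by at least 10 points, the difference called the gap below. Since the rule uses the ranks of all 4 libraries, ranks, q-values and fold enrichments of the members are given as descriptions, without a test.

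Open chromatin was mapped by ATAC-seq, which uses a transposase (Tn5) to insert sequencing adapters into accessible DNA. All cells were of the iMGT-Myh6-eGFP-MEF line, mouse embryonic fibroblasts in which doxycycline (1 μg/mL) induces Mef2c, Gata4 and Tbx5 (MGT), the transcription factors used to turn fibroblasts towards heart muscle cells. They were transfected with siControl (2 libraries) or siChst7 (2 libraries) before induction and taken at day 1 after it, then frozen and thawed for the assay. Both groups carry the induced factors and differ by label in the siRNA. Uninduced cells were not analysed here. The labels name 1 line and call the replicates biological without saying whether they were separate cultures, so the spread between them may be technical.

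Chst7 encodes a sulfotransferase that adds sulfate to chondroitin sulfate, a sugar chain carried by proteoglycans of the cell surface and matrix. Accessible regions are mostly promoters, where transcription starts, and distal elements such as enhancers, where transcription factors bind. Promoters of widely expressed genes tend to be rich in CpG dinucleotides and open in many cell types, whereas distal elements differ more between cell types and states.

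Promoter sequences are shown for members at gene starts, where their base composition can be read directly. The first 4 below are those that share bases with a member named by the rule given with the processing (the transcriptional corepressor gene Nab1, the cardiac calsequestrin gene Casq2, the transcription factor gene Sox8 and the reprogramming factor gene Mef2c). The last 3, Pptc7, a mitochondrial phosphatase gene, Afap1l2 and Ttc38, had the largest gaps among members that hold a start and were chosen after their values were seen. Each runs 5′ to 3′ on the gene's own strand over 300 bases, 250 before and 50 after the start, as RefSeq gives it for GRCm38.p6, the same assembly as mm10. Capitals mark the matches to 12 short motifs that are listed further down. The Nab1 member shares 201 of the 300 bases but begins 50 bases upstream of the start, and the other members hold the start itself. The Casq2 stretch holds no match to the letters of these motifs and has 6 CpGs. The Nab1 stretch holds 7 matches to the SP and KLF letters and 46 CpGs. Only those letters were searched, so variant sites are not marked.
Nab1 (chr1:52500399-52500698, minus strand): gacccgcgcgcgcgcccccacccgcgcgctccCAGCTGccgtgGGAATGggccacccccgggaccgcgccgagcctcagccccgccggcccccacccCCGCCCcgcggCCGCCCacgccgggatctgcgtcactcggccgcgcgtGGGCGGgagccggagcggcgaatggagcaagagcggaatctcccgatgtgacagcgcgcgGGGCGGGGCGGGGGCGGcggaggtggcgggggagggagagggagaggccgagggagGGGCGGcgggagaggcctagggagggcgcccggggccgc
Casq2 (chr3:102086165-102086464, plus strand): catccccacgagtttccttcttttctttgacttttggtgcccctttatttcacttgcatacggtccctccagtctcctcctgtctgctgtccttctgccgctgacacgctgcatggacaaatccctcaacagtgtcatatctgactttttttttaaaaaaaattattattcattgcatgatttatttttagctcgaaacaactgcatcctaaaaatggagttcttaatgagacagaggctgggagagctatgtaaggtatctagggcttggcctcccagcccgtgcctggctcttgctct
Sox8 (chr17:25570637-25570936, minus strand): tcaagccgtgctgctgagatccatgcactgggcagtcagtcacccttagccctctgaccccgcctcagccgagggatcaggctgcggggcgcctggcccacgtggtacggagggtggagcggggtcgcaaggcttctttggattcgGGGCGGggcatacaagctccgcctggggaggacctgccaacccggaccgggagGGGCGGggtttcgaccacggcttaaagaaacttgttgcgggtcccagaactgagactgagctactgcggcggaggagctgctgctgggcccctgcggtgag
Mef2c (chr13:83523406-83523705, plus strand): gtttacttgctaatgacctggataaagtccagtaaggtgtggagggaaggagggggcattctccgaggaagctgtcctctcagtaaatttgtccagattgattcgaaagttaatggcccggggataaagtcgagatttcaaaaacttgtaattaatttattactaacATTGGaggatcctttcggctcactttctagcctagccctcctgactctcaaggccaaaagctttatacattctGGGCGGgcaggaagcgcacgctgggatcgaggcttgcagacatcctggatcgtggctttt
Pptc7 (chr5:122284148-122284447, plus strand): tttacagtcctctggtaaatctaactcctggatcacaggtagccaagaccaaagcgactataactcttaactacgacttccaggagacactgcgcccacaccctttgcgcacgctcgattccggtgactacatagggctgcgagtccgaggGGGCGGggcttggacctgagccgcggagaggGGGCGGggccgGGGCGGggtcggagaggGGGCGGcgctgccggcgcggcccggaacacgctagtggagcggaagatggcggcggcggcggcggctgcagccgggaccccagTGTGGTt
Afap1l2 (chr19:57008526-57008825, minus strand): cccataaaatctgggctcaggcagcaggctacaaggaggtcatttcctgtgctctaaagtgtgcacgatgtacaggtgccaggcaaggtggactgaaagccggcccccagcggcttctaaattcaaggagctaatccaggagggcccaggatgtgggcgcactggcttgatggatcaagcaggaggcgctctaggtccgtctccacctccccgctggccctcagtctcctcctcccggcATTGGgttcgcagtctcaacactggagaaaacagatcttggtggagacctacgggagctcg
Ttc38 (chr15:85832054-85832353, plus strand): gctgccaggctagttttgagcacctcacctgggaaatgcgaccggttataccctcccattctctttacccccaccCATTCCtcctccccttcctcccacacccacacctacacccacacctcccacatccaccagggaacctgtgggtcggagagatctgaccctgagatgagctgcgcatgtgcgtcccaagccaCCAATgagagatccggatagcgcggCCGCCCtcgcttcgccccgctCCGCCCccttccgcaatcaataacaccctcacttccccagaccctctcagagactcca

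Members made up 2.66% of the shared regions, and 580 regions (1.04%) met the mirror rule, with both siChst7 percentiles at least 10 points above both siControl percentiles. When the 4 libraries were divided in the 2 other ways into 2 and 2, the counts were smaller in sum but not small. Replicates numbered 1 against replicates numbered 2 gave 729 regions (1.30%) in one direction and 208 (0.372%) in the other. The pair siControl 1 and siChst7 2 against siControl 2 and siChst7 1 gave 121 (0.216%) and 1039 (1.86%). The siRNA split thus held 2069 regions in both directions, against 937 and 1160. In each of the 3 splits the side without siChst7 replicate 2 had the larger count. Dividing 4 libraries into 2 and 2 can be done in 3 ways, so a two-sided exact permutation test cannot give a p below 1 in 3. No test is given, since the rule itself used these ranks.

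**Figure D1:**
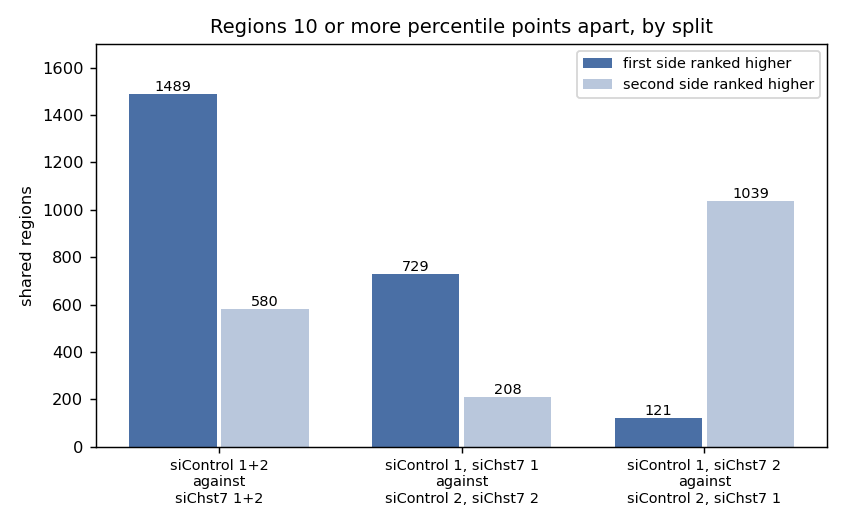
Number of shared regions (y axis) whose lower percentile on one side exceeds the higher percentile on the other by 10 points or more, for the 3 ways of dividing the 4 libraries into 2 and 2 (x axis). Dark bars count regions ranked higher on the first side named and pale bars those ranked higher on the second. The siRNA split reaches 1489 and 580, and the other splits reach 1039 at most on one side.

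How many regions fell on each side depended on the peaks over which the percentile was taken. Replicate 2 of siChst7 had the shortest list, 66165 peaks against 73902 to 75696. Its background read density, estimated from the steps of the fold enrichments, was 0.757 relative to siControl replicate 1 (0.963 in siControl replicate 2 and 1.02 in siChst7 replicate 1). The estimate divides a fitted background by the narrowest peak width of each library. The fitted step held for only 33.4% to 46.0% of the weak peaks of a library. Shared regions in siChst7 replicate 2 had a median percentile of 57.4, against 61.8 to 62.6 in the other libraries. The part of its depth in the counts was not tested. With percentiles taken over the shared regions only, 1071 regions ranked lower and 1225 higher with siChst7, and 838 of the 1489 members met the rule. With lists cut to the length of the shortest, 861 ranked lower and 1368 higher, and 748 members met it. Without siChst7 replicate 2, which loosens the rule to 3 libraries, 3374 regions ranked lower and 3420 higher. The excess of lower over higher regions turned around in these 3 settings. It held with peaks of a −log10 q of at least 5 (1449 lower and 687 higher), with fold enrichments ranked (1660 and 780), and without any other single library.

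The members were mostly regions of middle strength. In siControl their percentiles ran from 13.1 to 84.3 with a median of 49.0 in replicate 1, and from 11.9 to 86.0 with a median of 49.8 in replicate 2. In siChst7 they ran from 0.0653 to 73.8 with a median of 30.7 in replicate 1, and from 0.306 to 69.5 with a median of 27.4 in replicate 2. The median difference between the 2 means was 18.7 points over the members and 1.24 over all shared regions. Between the libraries of one siRNA, members differed by a median of 3.48 points in siControl and 4.57 in siChst7, against 3.77 and 4.89 over all shared regions and 6.84 and 8.72 over those of mean percentile 20 to 60. The rule favours regions whose libraries of one siRNA lie close together. The gap was under 15 points in 1032 members (69.3%), from 15 to 20 in 345, from 20 to 25 in 88, from 25 to 30 in 16 and at least 30 in 8, with a maximum of 35.8.

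**Figure D2:**
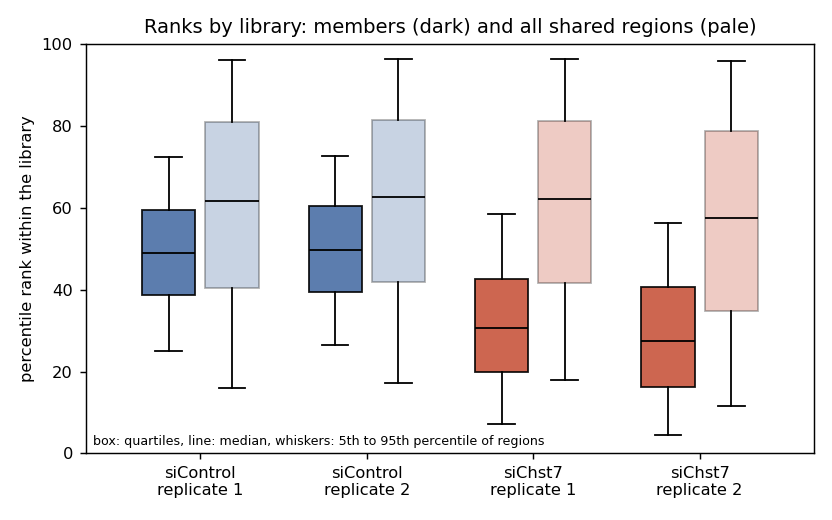
Percentile rank within the library (y axis) of the 1489 members (dark boxes) and of all 55907 shared regions (pale boxes) in each library (x axis). Boxes span the quartiles with the median as a line, and whiskers reach from the 5th to the 95th percentile of the regions. Member medians are 49.0 and 49.8 in siControl and 30.7 and 27.4 in siChst7, as the rule requires them to differ.

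The authors' values behind the ranks are given as a description, since the rule fixes their direction. Members had a median −log10 q of 24.7 and 23.9 with siControl, and of 13.1 and 11.3 with siChst7. All shared regions had medians of 37.7 and 37.0 with siControl and of 37.2 and 28.6 with siChst7, so siChst7 replicate 2, the library with the lowest background density, was also lower there. The members' median fold enrichment over background was 8.52 in each siControl library, then 5.95 and 6.04 with siChst7, against 9.44, 9.59, 9.18 and 8.96 over all shared regions. In all 1489 members both siControl fold enrichments were above both siChst7 values, as they were in 29.8% of all shared regions, and nothing is read from this count because fold enrichment and −log10 q come from the same peak. The ratio of the means had a median of 1.37 and ran from 1.097 to 2.26. The rule admits only regions with a called peak in both siChst7 libraries, so sites without one are not among the members. The width of the peaks had a siControl to siChst7 ratio of 1.13 at the median. In 563 members (37.8%) both siControl widths exceeded both siChst7 widths, against 20.4% of all shared regions, and in 77 members (5.17%) it was the other way round, against 13.4%. Among the regions ranked higher with siChst7 these shares were 9.14% and 35.7%. Nothing is read from the width counts either, because width and −log10 q also come from the same peak. Replicate 2 of siChst7 had the narrowest peaks over all shared regions, with a median of 530 bp against 565 to 587 bp, and its part in the member count was not tested. Whether fewer cells with an open site or a less open site in each cell underlies a lower peak cannot be told apart in bulk libraries.

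**Figure D3:**
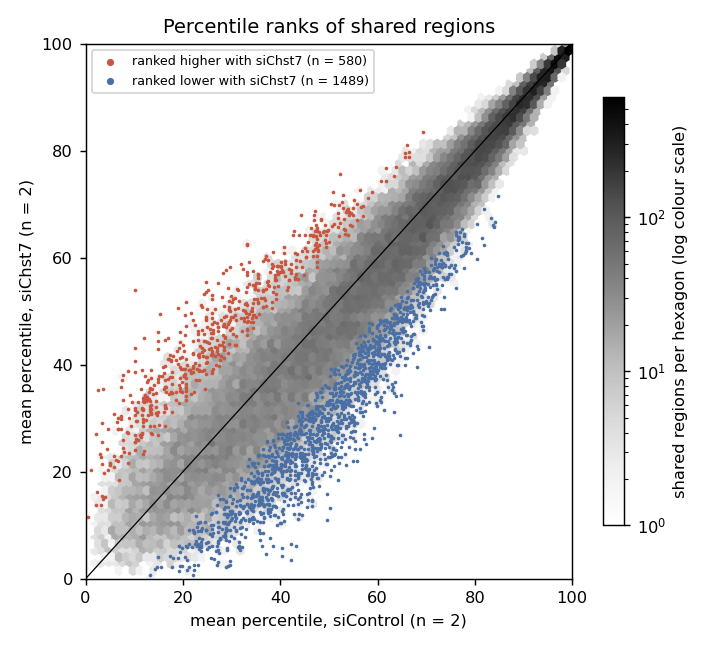
Mean percentile with siChst7 (y axis) against mean percentile with siControl (x axis), each over 2 libraries, for all shared regions (grey, log colour scale of regions per hexagon), with the 1489 members in blue and the 580 regions of the mirror rule in red. The line marks equal ranks. Both coloured sets lie away from the line by construction, and no region of either has a mean over the 4 libraries above 80.

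Members were most frequent at middle strength. By mean percentile over the 4 libraries, their share peaked between 30 and 40, with 386 of 5930 regions (6.51%), and made up 5.77% between 20 and 30 and 3.55% between 50 and 60. There was none among the 7089 regions between 80 and 90 or the 7082 above 90. Regions of the mirror rule were spread likewise, with 2.73% between 20 and 30, 2.48% between 30 and 40 and none above 80. Libraries of one siRNA also differed more between 20 and 60, by medians of 6.84 points in siControl and 8.72 in siChst7. Over all shared regions these medians were 3.77 and 4.89. The strength profile is thus not read as a trait of the members. The narrowest member region spanned 214 bp and the widest 3938 bp, with a median of 549 bp, against 681 bp over all shared regions. In 1445 members (97.0%) each library contributed exactly 1 peak. The 4 summits of a member lay within 67 bp of each other at the median (59 bp over all shared regions), and in 72.2% of the members they lay within 100 bp.

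A larger share of the members than of the mirror set lay at gene starts, here taken as the starts of the promoter table or, for genes it lacks, both outer ends. Of the 1489 members 188 (12.6%, exact 95% interval 10.98 to 14.4, counting error only and with regions treated as independent) lay within 1 kb of such a point of a protein-coding gene. Of the 580 regions ranked higher with siChst7 it was 13 (2.24%, 1.20 to 3.80), and of all shared regions 12209 (21.8%). The share over all shared regions is raised by the strongest ones, among which 63.6% of those above the 90th percentile lay at a start. Among the 24131 regions of mean percentile 20 to 60, 9.55% lay at a start. In that range it was 155 of 1230 members (12.6%) and 11 of 481 regions ranked higher with siChst7 (2.29%). Within the band from 20 to 30 the shares were 14.7% for members, 2.22% for the mirror set and 8.61% for all. With only the starts of the promoter table, an alternative added after the values were seen, the counts were 128 members (8.60%) and 11 regions ranked higher (1.90%), against 17.5% of all shared regions. These shares stand side by side and were not tested, since regions are not replicates.

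Seen from the other side, 6.73% of the 2304 start regions in the range from 20 to 60 were members and 0.477% ranked higher with siChst7. Elsewhere inside genes these shares were 4.90% and 2.07% of 11760 regions, and outside genes with a gene end within 100 kb they were 5.25% and 1.96% of 8155 regions. Far from any gene, with no end within 100 kb, they were 3.71% and 3.45% of 1912 regions. The siControl mean exceeded the siChst7 mean by a median of 5.00 points at starts, 2.36 elsewhere inside genes, 2.95 outside them and 0.334 far from genes. These differences follow the way of ranking. In the same range but with percentiles over shared regions only, 3.76% of the regions at starts ranked lower and 1.19% higher, and 2.79% and 5.22% far from genes. With equal list lengths it was 3.34% and 1.56% at starts and 2.41% and 6.79% far from genes. Without siChst7 replicate 2 it was 12.4% and 4.93% at starts and 7.76% and 14.2% far from genes. At starts more regions ranked lower than higher in all 10 settings recomputed by position, while far from genes the sign changed between them. Starts did not have the largest difference in every one, since with fold enrichments ranked it was 2.95 points there and 3.16 points outside genes. Over all members 857 (57.6%) overlapped a gene, 549 (36.9%) lay outside genes with an end within 100 kb, and 83 (5.57%) had no gene end in that distance. The share of starts among members was between 8.93% and 13.5%, and that of the mirror set between 0% and 4.56%, under each planned setting that kept the window of 1 kb. Without siChst7 replicate 2 they were 11.8% and 4.36%.

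**Figure D4:**
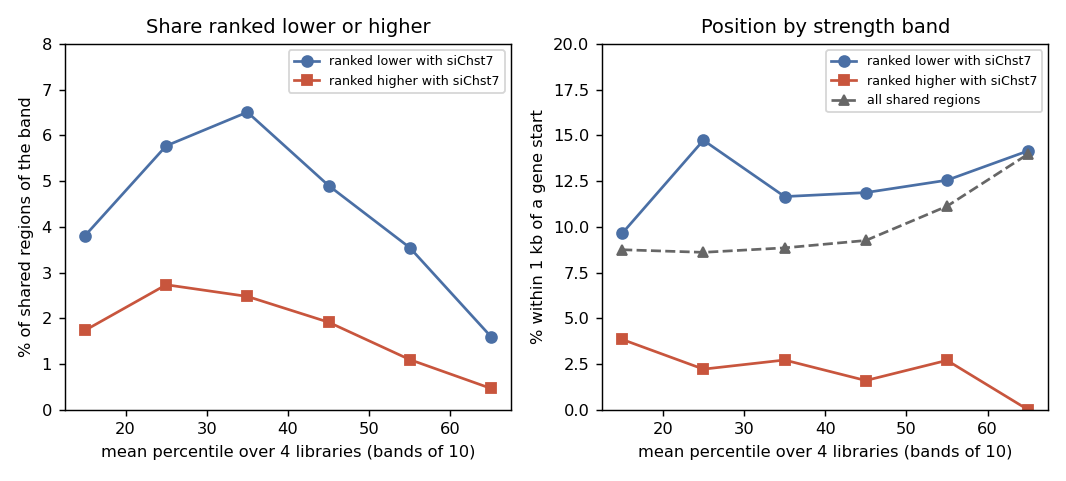
Left, share of shared regions (y axis, %) ranked lower (blue) or higher (red) with siChst7, by band of the mean percentile over the 4 libraries (x axis, bands of 10 from 10 to 70). Right, share (y axis, %) within 1 kb of a gene start (or end, where no start is given) among regions ranked lower, ranked higher and all shared regions (grey). In the bands from 10 to 70 the blue points lie above the grey ones and the red points below.

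The starts that members cover were G+C rich. A transcription start lay inside 66 members, with 74 promoter entries between them. Their 300 bases had a median G+C of 66.2% and 22 CpGs, and 49 of 74 (66.2%) had a CpG ratio (observed over expected) of at least 0.6. Promoters in shared regions of mean percentile 20 to 60 had a median G+C of 61.2% and 18 CpGs, and 57.2% of 1010 reached that ratio. Over all promoters in shared regions it was 61.7%, 22 CpGs and 78.8% of 9851. The 5 promoters in regions ranked higher with siChst7 had a median G+C of 50% and 2 CpGs, and none reached the ratio. Whether G+C content differs in its effect on the 4 libraries was not tested.

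Motif matches at those starts were mostly near the shares of promoters in shared regions of mean percentile 20 to 60. Both strands were searched for 12 sets of letters. They were TGANTCA for AP-1 factors, GGAATG for TEAD, AGATAA for GATA factors, GGTGTGA for T-box factors, TGTGGT for RUNX, CCAAT for NFY, GGGCGG for SP and KLF factors, CCGGAAGT for ETS factors and CAGCTG for E-box factors. For MEF2 they were CTA and TAG with any 4 bases between them, and for NRF1 GCGC and TGCGC with any 1 base between. For CTCF they were CC, any 3 bases, AG, any 2 bases and GGC. In 2 of the 74 promoters matches of different motifs shared bases. SP and KLF letters were found in 56.8% of the member promoters, 60.8% of those in the range from 20 to 60 and 46.6% of all 21019 promoters. For NFY the shares were 32.4%, 29.7% and 38.5%, for CTCF 17.6%, 14.6% and 9.97%, for RUNX 16.2%, 13.2% and 14.7%, for E-box 14.9%, 18.5% and 15.7%, for TEAD 9.46%, 13.2% and 13.5%, and for NRF1 9.46%, 6.63% and 6.44%. The letters of the induced factors were rare in all sets, with GATA in 6.76%, 7.23% and 9.69%, MEF2 in 4.05%, 2.28% and 3.51%, and T-box in 1.35%, 3.47% and 3.68%. AP-1 letters stood in 4.05%, 8.12% and 7.04%, and ETS letters in 6.76%, 2.38% and 5.20%. With 74 promoters 1 match is worth more than 1 point, and a match is no evidence of binding. Sites that deviate from these letters were not counted, so a promoter without a match may still hold a variant site. Distal members, which are most of the set, were not searched, as no genome sequence was used here.

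The 4 largest gaps belonged to sites over 1 kb from any gene start. First stood a site far from genes, chr13:110556828-110557123, with its nearest start, that of the kinase gene Plk2, 162 kb away. Its percentiles were 42.7 and 43.8 in siControl and 5.45 and 6.95 in siChst7, and its −log10 q 20.0 and 19.5 in siControl and 4.66 and 5.17 in siChst7. Next came a site inside Ctnnbl1, a gene of a spliceosome-associated protein, at chr2:157873252-157873617 (44.5 and 40.1 in siControl and 5.45 and 1.62 in siChst7). It was followed by a site 17.1 kb from an end of the keratin gene Krt80 at chr15:101387283-101387682 (42.9 and 41.7 in siControl and 4.90 and 8.26 in siChst7) and one 81.0 kb from the start of Atg7, the E1-like enzyme of autophagy, at chr6:114589452-114590095 (39.7 and 40.9 in siControl and 3.92 and 7.55 in siChst7). In all 4 the siControl percentiles stood between 39.7 and 44.5 and the siChst7 percentiles under 10. The rule and the choice by largest gap require them to be apart.

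Among the 15 members with the largest gaps, 3 lay within 1 kb of a start or end of a gene. In Kif5a, a kinesin motor gene, the site at chr10:127226464-127226871 lay 0.769 kb from an outer end, whose side is not given by the tables used, and stood at 53.2 and 53.8 in siControl and 20.8 and 21.6 in siChst7. At Nab1, whose sequence is shown above and whose product restrains EGR transcription factors, the region at chr1:52500498-52501090 stood at 45.3 and 47.8 in siControl and 14.6 and 14.4 in siChst7. At the deubiquitinase gene Usp42 the region at chr5:143758677-143759295, 0.458 kb from an outer end, stood at 62.1 and 60.4 in siControl and 32.9 and 30.1 in siChst7. In each of the 3 the libraries of one siRNA stood close together, which the rule and the choice by largest gap favour. The gap ran from 27.5 to 31.6 points.

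The others of these 15 were distal. Inside genes lay sites in Spsb4 (45.4 and 45.4 in siControl and 15.1 and 11.7 in siChst7), Galnt18, a glycosyltransferase of mucin-type O-glycosylation (46.0 and 47.2 in siControl and 17.0 and 10.2 in siChst7), the laminin chain gene Lama5 (45.6 and 35.2 in siControl and 2.29 and 6.31 in siChst7), Sos1, which activates Ras (56.0 and 58.3 in siControl and 27.7 and 26.6 in siChst7), and Filip1l (41.6 and 43.6 in siControl and 13.0 and 14.5 in siChst7). One lay 7.12 kb from an end of Aldh1a3, an enzyme of retinoic acid synthesis, at chr7:66434600-66435146 (53.7 and 59.1 in siControl and 25.5 and 23.1 in siChst7). A pair had no gene end within 100 kb, at chr1:185869905-185870548 (37.1 and 40.1 in siControl and 5.45 and 6.95 in siChst7) and chr13:60478791-60479676 (57.6 and 41.5 in siControl and 8.25 and 13.6 in siChst7). In the last of these the siControl libraries stood farther apart than in any other of the 15.

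Just behind these 15 stood the start of Pptc7, whose sequence is shown above. The region at chr5:122284189-122284540 had percentiles of 38.2 and 43.4 in siControl and 10.2 and 11.4 in siChst7, and a second member lay 30.5 kb inside the gene. The starts of Afap1l2 (63.4 and 57.7 in siControl and 36.3 and 30.4 in siChst7) and Ttc38 (39.8 and 42.6 in siControl and 18.3 and 12.6 in siChst7) had the next largest gaps among members that hold a start, 21.4 points each. At all 3 starts both siControl values lay above both siChst7 values, as the rule and the choice by largest gap require.

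The strongest members stood above the 80th percentile with siControl. The highest lay at an end of Phf3, at chr1:30873639-30874312, with percentiles of 84.3 and 85.2 in siControl and 73.8 and 69.5 in siChst7 and −log10 q of 94.8 and 96.5 in siControl and 57.7 and 42.8 in siChst7. Near Adprhl1, which encodes an ADP-ribosylhydrolase-like protein of heart muscle, a pair of strong members lay at chr8:13208576-13209279 (83.0 and 83.7 in siControl and 67.3 and 67.5 in siChst7), which is nearer to Grtp1, and at chr8:13209712-13210112 (83.7 and 84.1 in siControl and 68.5 and 63.0 in siChst7), 44.0 kb from the start of Adprhl1. Another member of this locus held the start of Adprhl1 itself, at chr8:13253888-13254418, with 81.0 and 76.4 in siControl and 61.0 and 62.6 in siChst7. This last region was added after its values were seen. Of the 5 other strongest members, the first lay across an outer end of St3gal4, a sialyltransferase gene whose start is 70.3 kb away (83.7 and 80.2 in siControl and 61.5 and 63.2 in siChst7). The next lay 11.7 kb from the procollagen protease gene Adamts14 (80.4 and 82.7 in siControl and 67.5 and 59.8 in siChst7). Another lay 42.4 kb from the start of Tmem242 (83.3 and 84.1 in siControl and 71.0 and 61.1 in siChst7). The last ones lay 16.7 kb from Ptma (82.2 and 86.0 in siControl and 71.1 and 62.1 in siChst7) and 87.1 kb from an end of Hes1, a repressor and Notch target (81.0 and 82.8 in siControl and 70.5 and 67.9 in siChst7). In all 8 named by the rule the siControl libraries were above 80 and the siChst7 libraries between 59.8 and 73.8.

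Of the genes the study turns on, Mef2c had a member at a start that lies inside the gene, which itself begins at chr13:83504017. The region at chr13:83523520-83525088, which covers the start shown above, had percentiles of 52.8 and 54.6 in siControl and 41.1 and 36.7 in siChst7. Its fold enrichments were 8.45 and 9.36 in siControl and 6.88 and 7.14 in siChst7. The rule requires the percentiles to be apart, and the fold enrichments were apart in every member. Of the 14 shared regions tied to Mef2c this region was the only member, and the median difference over the 14 was 3.98 points. DNA of the inducible Mef2c copy cannot be told apart from the gene itself where they share exons, and its part was not tested. None of the 7 shared regions of Gata4, the 2 of Tbx5 and the 1 of Myh6 was a member, with gaps of at most 0.417. The same limit holds for the inducible Gata4 and Tbx5 copies. It also holds for any Myh6 sequence in the Myh6-eGFP part of the line, and none of this was tested. At Chst7 the region over the start (chrX:20059156-20060692) had percentiles of 92.4 and 88.0 in siControl and 85.7 and 84.3 in siChst7, a gap of 2.31, and the one 18.2 kb inside it had 49.2 and 14.98 in siControl and 25.1 and 50.2 in siChst7, where each siRNA held a high and a low library. An siRNA degrades messenger RNA, and open chromatin at the gene therefore says nothing of how well Chst7 was knocked down, which was not analysed here.

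Regions tied to cardiac genes held 6 members in 4 lists, counts too small to set against the background. Of 120 shared regions tied to ion handling genes 4 (3.33%) were members, against 2.66% of all shared regions. Those were the start of Casq2, which stores calcium in the sarcoplasmic reticulum (64.4 and 66.1 in siControl and 47.4 and 45.0 in siChst7), a site inside Cacnb2, a subunit of the L-type calcium channel (59.5 and 66.8 in siControl and 34.6 and 37.3 in siChst7), and 2 sites inside Cacna1c, its pore subunit (42.1 and 36.5 in siControl and 23.5 and 18.1 in siChst7; 31.0 and 29.1 in siControl and 17.0 and 11.3 in siChst7). Of 95 sarcomere regions 1 was a member, 3.84 kb from the start of the myosin light chain gene Myl3 (60.8 and 57.6 in siControl and 42.3 and 42.6 in siChst7). Cardiac transcription factors had 1 of 104, at Mef2c, and cardiac secreted and metabolic genes 0 of 38. Skeletal muscle genes had 0 of 30.

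Of all shared regions 2.66% were members, and the fibroblast lists stood at or below that without a test. The matrix list had 2 members of 164 (1.22%), inside the fibrillin gene Fbn2 (47.8 and 43.8 in siControl and 30.1 and 29.4 in siChst7) and the collagen gene Col6a2 (70.4 and 68.1 in siControl and 55.3 and 47.4 in siChst7), and 4 of the mirror set. The identity list had 4 of 159 (2.52%). Both sites near Foxc1, a forkhead factor of mesenchyme, belonged to it, 4.05 kb (19.8 and 34.7 in siControl and 3.62 and 2.61 in siChst7) and 5.03 kb from the start (53.6 and 51.9 in siControl and 39.8 and 24.1 in siChst7). The others lay at an end of Zeb1, a repressor of epithelial genes (29.4 and 28.3 in siControl and 16.0 and 12.9 in siChst7), and 83.4 kb from an end of Thy1, a surface marker gene (57.9 and 55.1 in siControl and 37.7 and 42.1 in siChst7). Smooth muscle and myofibroblast genes had 1 of 72, inside Cald1, the caldesmon gene (33.1 and 32.4 in siControl and 21.1 and 15.1 in siChst7). Of the cell type markers, 7 of 9 for fibroblasts had a shared region within 1 kb of a start (not Col3a1 and Ddr2). So did 4 of 6 cardiomyocyte markers (Myh6, Tnnt2, Ttn and Nppa, not Actn2 and Nkx2-5). It was 0 of 4 endothelial, 1 of 4 immune, 1 of 4 epithelial and 0 of 3 skeletal muscle markers. The share over all protein-coding genes is not given here, so cell identity is not read from these counts.

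Of the lists around Chst7 one stood below and one above the 2.66% of all shared regions, and neither difference was tested. Glycosaminoglycan synthesis and sulfation genes had 2 members of 210 shared regions (0.952%) and 3 regions of the mirror set. One lay 99.8 kb from an end of Ext1, the heparan sulfate polymerase (46.5 and 42.6 in siControl and 27.7 and 13.6 in siChst7), and one near Chst11, a chondroitin sulfotransferase (54.9 and 55.7 in siControl and 38.0 and 41.2 in siChst7), whose start is 212 kb away. Proteoglycan and hyaluronan genes had 4 of 113 (3.54%). The first lay inside Fmod, the fibromodulin gene, 2.14 kb from its start (34.1 and 36.7 in siControl and 16.1 and 11.5 in siChst7). Another lay inside Hspg2, the perlecan gene (42.3 and 36.9 in siControl and 9.47 and 21.6 in siChst7). The others lay 28.7 kb from the start of Prelp (54.5 and 59.2 in siControl and 39.6 and 37.0 in siChst7) and inside Dcn, the decorin gene (65.9 and 59.0 in siControl and 40.7 and 46.6 in siChst7). Fmod, Prelp and Dcn encode small leucine-rich proteoglycans of the matrix, and at all 4 genes the groups did not overlap, as the rule demands.

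Of all shared regions 2.66% were members, and no list was tested against that share. Integrin and laminin genes, which link cells to the matrix, had 7 members of 164 (4.27%) and 2 of the mirror set. They comprised 2 sites inside Lama5 (the one above and 24.8 and 45.8 in siControl and 13.0 and 8.61 in siChst7), sites inside Lamb3 (68.3 and 68.7 in siControl and 49.8 and 51.7 in siChst7), Itgb5 (52.4 and 47.0 in siControl and 33.5 and 32.5 in siChst7) and Itga11 (33.6 and 23.8 in siControl and 7.08 and 8.96 in siChst7), one near the start of Itgav (35.6 and 45.8 in siControl and 24.1 and 18.5 in siChst7) and one 14.6 kb from an end of Itga6 (32.8 and 40.1 in siControl and 17.0 and 17.0 in siChst7). The median difference over all 164 was 0.674 points, below the 1.24 of all shared regions, and the rest of the list is thus not described by its 7 members.

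Signalling genes showed single members. Wnt genes had 5 of 189 (2.65%), and of these the region over an end of Wnt5a, a ligand of the β-catenin-independent pathway, had the largest gap (42.9 and 41.5 in siControl and 20.3 and 11.9 in siChst7). The receptor genes Fzd7 (52.2 and 50.8 in siControl and 30.8 and 33.5 in siChst7) and Fzd2 (39.6 and 40.8 in siControl and 27.1 and 27.1 in siChst7), the factor gene Tcf7 (50.3 and 48.3 in siControl and 31.7 and 11.2 in siChst7) and the feedback inhibitor gene Axin2 (62.0 and 68.6 in siControl and 46.6 and 45.9 in siChst7) held the others. TGF-beta and BMP genes had 4 of 208 (1.92%), at the signal transducers Smad3 (59.9 and 59.8 in siControl and 35.0 and 42.9 in siChst7) and Smad2 (48.5 and 43.6 in siControl and 24.4 and 29.9 in siChst7), the target Id3 (63.4 and 63.3 in siControl and 50.1 and 44.9 in siChst7) and the repressor Skil (42.5 and 32.4 in siControl and 21.4 and 11.6 in siChst7). YAP and TEAD genes had 2 of 164, both inside Amotl1, which binds YAP (45.9 and 48.2 in siControl and 33.8 and 26.6 in siChst7; 35.4 and 36.9 in siControl and 24.2 and 15.3 in siChst7). Inflammatory genes had 2 of 129, near the cytokine genes Lif (47.2 and 47.6 in siControl and 15.1 and 24.2 in siChst7) and Csf1 (23.9 and 28.1 in siControl and 4.52 and 11.6 in siChst7). AP-1 factor genes had 0 of 76. In none of these 5 lists did the share pass that of all shared regions.

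The mesenchymal RUNX and SOX list had 4 of 262 (1.53%), the start of Sox8 (45.2 and 43.3 in siControl and 29.5 and 24.6 in siChst7), 2 sites near Cebpb (69.1 and 57.9 in siControl and 45.3 and 42.4 in siChst7; 59.9 and 60.7 in siControl and 42.0 and 47.6 in siChst7) and one inside Tcf4 (22.5 and 24.8 in siControl and 10.0 and 0.501 in siChst7). Cell cycle genes had 2 of 112, 0.1 kb from an end of Myc (70.1 and 70.04 in siControl and 55.4 and 48.7 in siChst7) and inside Cdk6 (56.2 and 62.2 in siControl and 44.1 and 36.8 in siChst7). Housekeeping genes had 2 of 51 (3.92%), against 2.66% of all shared regions. They lay 29.1 kb from the start of Polr2a (55.6 and 56.3 in siControl and 43.7 and 42.5 in siChst7) and inside Sdha (62.6 and 55.9 in siControl and 42.5 and 44.2 in siChst7). Of the lists for other cell types, the neural one had 3 of 41 (7.32%), against 2.66% of all shared regions, on few regions and without a test. They lay near Gad1 (52.6 and 48.9 in siControl and 34.9 and 30.5 in siChst7), Neurod1 (65.8 and 76.2 in siControl and 51.0 and 53.1 in siChst7) and Tubb3 (71.5 and 69.8 in siControl and 58.9 and 56.0 in siChst7). The endothelial list had 1 of 70, 62.8 kb from an end of Cdh5 (21.9 and 36.9 in siControl and 0.0653 and 4.83 in siChst7), and the immune (22 regions) and epithelial and epicardial (40 regions) lists had none. Over all 23 lists 51 of 2619 regions (1.95%) were members and 25 belonged to the mirror set, and the median difference of 1.17 points was close to the 1.24 of all shared regions.

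**Figure D5:**
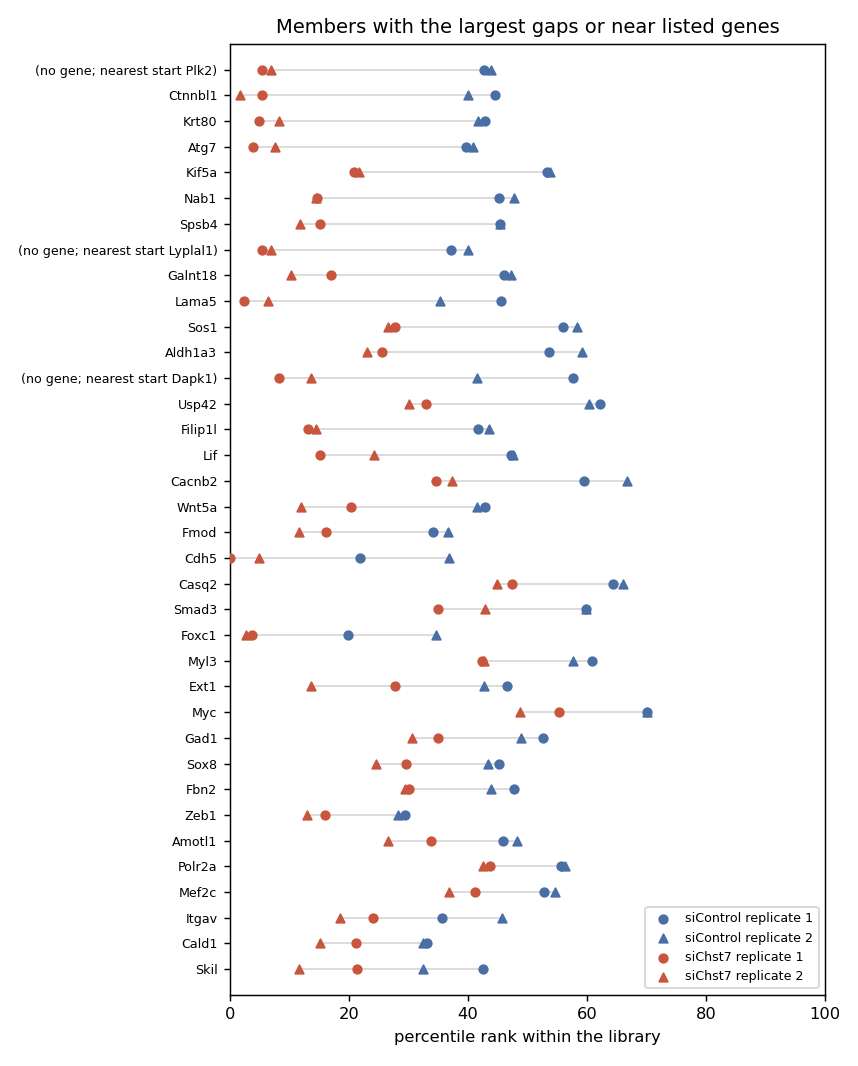
Percentile rank within the library (x axis) of the members with the 15 largest gaps and of those that lead a gene list or lie within 1 kb of a start or end of a listed gene (y axis, by gene, with the largest gap at the top). Blue marks are siControl and red marks siChst7, circles replicate 1 and triangles replicate 2. At each gene both blue marks lie right of both red ones, since the rule chose them so. The gaps run from 35.8 at the top to 11.02 at Skil.

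Most genes had a single member. The 1406 members tied to a gene belonged to 1303 genes of 15331 with a shared region, of which 1209 had 1 member, 85 had 2 and 9 had 3, the most at any gene. Besides Galnt18 (3 of 12 shared regions) these were Lhfp (3 of 18), Zfp469, a zinc finger gene (3 of 23), Dock1, which activates Rac (3 of 24), Pakap (3 of 31), Ccbe1, a matrix protein gene of lymphatic growth (3 of 12), Hrh1, the histamine H1 receptor gene (3 of 32), Atg7 (3 of 34) and Rora, an orphan nuclear receptor gene (3 of 19). The leading members of these were at 68.6 and 65.8 in siControl and 45.3 and 46.1 in siChst7 (Lhfp), 48.3 and 52.7 in siControl and 30.7 and 16.4 in siChst7 (Zfp469), 48.3 and 44.2 in siControl and 25.5 and 11.6 in siChst7 (Dock1), 36.4 and 40.8 in siControl and 21.6 and 22.4 in siChst7 (Pakap), 33.9 and 25.8 in siControl and 12.9 and 12.5 in siChst7 (Ccbe1), 66.0 and 56.4 in siControl and 41.8 and 38.4 in siChst7 (Hrh1) and 48.6 and 52.3 in siControl and 29.2 and 24.3 in siChst7 (Rora). Many shared regions of these genes were not members, and the median differences over all of them ran from 0.512 points (Ccbe1) to 6.26 (Hrh1).

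Members lay on every chromosome analysed, and 22 (1.48%) had another member within 10 kb and 181 (12.2%) within 50 kb. The matching shares for other sets of regions are not given here, so whether members cluster is not read from these counts. The fullest window of 250 kb was at the neighbouring genes Hrh1 and Atg7, chr6:114392038-114637177, with 6 members among 50 shared regions and 1 region of the mirror set. In a sparse window at Cop1 and Tnr (chr1:159371598-159524495) 4 of 7 shared regions were members, among them the start of Tnr, the tenascin-R gene (60.2 and 60.6 in siControl and 44.2 and 42.1 in siChst7). By chromosome the share of members ran from 1.88% on chromosome 13 to 3.09% on chromosome 4. These windows were picked after the members were known.

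The threshold cut through a continuous range. Just inside it, with gaps of 10.0, stood sites near Bst1 (26.0 and 32.0 in siControl and 16.0 and 6.95 in siChst7), inside Nucb2 (79.6 and 73.6 in siControl and 63.2 and 63.6 in siChst7) and inside Ptov1 (35.5 and 42.5 in siControl and 12.2 and 25.5 in siChst7). Just outside, with gaps between 9.99 and 10.0, stood sites near Cd68 (32.1 and 27.9 in siControl and 17.9 and 11.7 in siChst7), inside Osbpl3 (46.5 and 32.3 in siControl and 19.1 and 22.4 in siChst7) and inside Arhgef18 (56.9 and 57.0 in siControl and 43.5 and 46.9 in siChst7). With a gap of at least 5 points 4518 regions would have been counted, and with at least 20 points 112.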

How the data were processed

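ATAC-seq peak lists of 2 siControl and 2 siChst7 libraries were used as deposited by the authors, with peaks called in each library separately and not on pooled replicates, as the peak names show. The submitters' processing notes name mm10, Bowtie, SAMtools, MACS3, bedtools and HOMER, without versions or settings. Filters and any Tn5 read shift are not known from the labels or headers. For each peak the authors deposited a fold enrichment over background (a ratio), a −log10 p, a −log10 q, a score derived from the −log10 q, and a summit offset. Reads and read totals were not analysed here, so counting error on a single peak cannot be given. Depth is estimated only relatively, from the background density fitted to the steps of the fold enrichments. A −log10 q rises with depth, for which reason percentile ranks within a library were compared.

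Ranks, regions, the gap and its threshold of 10 points are defined in the text and were computed in Python 3.11.15 with numpy 2.4.6, pandas 2.3.3 and scipy 1.17.1. The procedure was checked on simulated lists of equal length, with a peak for every region in each list. These libraries differ from that setting, so the check says nothing of how many members arose by error. Genes are the 21627 protein-coding genes of RefSeq GRCm38.p6. Starts came from its promoter table for 17273 of them, and both outer ends stood in for the other 4354. A region belongs to the gene it overlaps, or else to the one with the nearest end within 100 kb. Exons and introns were not told apart. A total of 23 gene lists held 525 genes, of which 524 matched. Named regions are the 15 members with the largest gaps, the 8 with the highest lower siControl percentile, members within 1 kb of an end of a listed gene, members of the lists, members of up to 8 genes with at least 3, the 3 on either side of the threshold, and shared regions at Chst7, Mef2c, Gata4, Tbx5 and Myh6. Members and lists were chosen with earlier results of these data known. Motifs had been planned for windows at summits and were searched in promoters instead, since no genome sequence was used here. Intervals on shares are exact Clopper-Pearson at 95%. No test across samples is given, since the rule used the ranks of all 4 libraries. Alternatives changed the threshold, the ranked value, the peaks ranked, the overlap, the window at starts and the libraries included.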

Additional observations from a re-analysis of the deposited data

How the results depend on the processing

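The main counts were 1489 members and 580 regions ranked higher with siChst7, with 51 members at listed genes. Of the members 12.6% lay at a gene start and 57.6% inside a gene, and of the regions ranked higher 2.24% lay at a start. A gap of at least 5 points gave 4518 members, 1809 higher, 207 at listed genes and 4.04% of the higher at a start. A gap of 15 gave 457, 149, 15 and 0.671%, with 10.5% of members at a start and 53.8% inside genes. A gap of 20 gave 112, 44, 4 and 0%, with 8.93% of members at a start. Ranking the fold enrichment put 10.1% of members at a start and 54.9% inside genes. Percentiles over shared regions gave 1225 regions ranked higher. Equal list lengths gave 861 members, 1368 higher, 30 members at listed genes and 54.5% inside genes. Windows of 2.5 kb put 17.2% of members and 5.34% of the higher at a start, and windows of 0.5 kb put 9.67% of members there. Starts of the promoter table alone, added after the data were seen, put 8.60% of members there. Leaving out 1 library at a time, which loosens the rule by construction, gave 3374 to 8340 members, 1273 to 3420 higher, 140 to 367 members at listed genes and 3.85% to 4.56% of the higher at a start. Without siChst7 replicate 2 more regions ranked higher (3420) than lower (3374). The causes of the other changes were not tested.

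With a replicate block, the gap taken within each replicate number, there were 2453 members, 979 regions ranked higher and 104 members at listed genes. Deviations of same-numbered libraries had a correlation of -0.00368 across 55907 regions, which are not independent, so the numbers were not shown to pair the libraries.

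The remaining alternatives, among them a −log10 q of at least 5 (1449 members), summit windows (1412), 1 peak per library (1445) and chromosome Y (1490), stayed within 1.5 times of the counts above. Of 99 named members 73 met the rule by fold enrichment, 65 over shared regions and 54 at equal list length.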
